A study of Mus musculus with 8 samples.

Results

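Lipoprotein lipase (LPL) and the proteins that control it or take up what it releases were followed through 10 genes in brown adipose tissue (BAT). The genes were listed by name: *Lpl*, *Gpihbp1*, *Lmf1*, *Angptl4*, *Angptl8*, *Cd36*, *Vldlr*, *Fabp3*, *Fabp4* and *Fabp5*, which are 10 of the 44674 gene identifiers in the expression table. They were chosen by name with the normalized counts and fold changes of the genotype contrast already known, so their differences between genotypes are given as a description. BAT was taken from 4 control mice and 4 Ox1RΔSERT mice at the end of a hyperinsulinemic-euglycemic clamp, in which insulin is infused and glucose is supplied to hold the blood level constant. All 8 were male, had a high-fat diet (HFD) between weeks 4 and 18 of age, and carried the floxed orexin receptor type 1 allele in both copies (Ox1R fl/fl). Control mice were littermates without Cre (Sert-Cre wt/wt), and Ox1RΔSERT mice had 1 Sert-Cre transgene (Sert-Cre tg/wt). Cre follows the serotonin transporter gene, so the receptor was deleted in cells that express this transporter, among them the serotonergic neurons of the raphe, and the adipocytes were not the target. Each library came from its own mouse, which is named here by the number in its label.

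LPL is made by adipocytes, folded in the endoplasmic reticulum with the help of LMF1, and carried to the capillary lumen by GPIHBP1, a protein of endothelial cells. There it hydrolyzes the triglycerides of chylomicrons and VLDL. ANGPTL4 inactivates the lipase, and ANGPTL8 is an insulin-responsive protein of the same family. The fatty acids that are set free enter through CD36 and are carried in the cell by fatty acid binding proteins, of which FABP3 is typical of muscle and active BAT, FABP4 of adipocytes, and FABP5 of several cell types including macrophages. VLDLR binds triglyceride-rich lipoproteins at the cell surface. In BAT this route brings fuel for heat production.

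The 3 binding protein genes are relatives, and their first coding exons are shown because the results depend on telling them apart. The sequences are from the GRCm38 reference, start at the ATG and are written 5′ to 3′ on the coding strand. Capitals mark bases of *Fabp3* and *Fabp5* that were not aligned to an identical base of *Fabp4* in a pairwise alignment of the coding sequences. *Fabp4* lies at chr3:10208439-10208511 (minus strand), *Fabp3* at chr4:130308778-130308850 (plus strand) and *Fabp5* at chr3:10012640-10012718 (plus strand).
Fabp4: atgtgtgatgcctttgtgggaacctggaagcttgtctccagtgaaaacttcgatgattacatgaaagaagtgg
Fabp3: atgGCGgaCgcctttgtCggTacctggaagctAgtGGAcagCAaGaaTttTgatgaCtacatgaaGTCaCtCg
Fabp5: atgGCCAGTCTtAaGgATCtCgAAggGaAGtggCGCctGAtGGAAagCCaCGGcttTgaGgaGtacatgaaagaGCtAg
In this exon 21 of 73 bases of *Fabp3* and 39 of 79 bases of *Fabp5* had no identical partner in *Fabp4*. Over the whole coding sequence the identity was 65.1% between *Fabp3* and *Fabp4*, 60.6% between *Fabp4* and *Fabp5*, and 57.3% between *Fabp3* and *Fabp5*. The longest run of bases shared by the transcripts of any 2 of them was 14. Sequence is shared with pseudogenes instead: 37.3% of the 31-base words of *Fabp3* and 9.21% of those of *Fabp5* also occur in another gene on the same strand. The main partner of *Fabp3*, the processed pseudogene *Fabp3-ps1*, had normalized values of at most 0.340. Those of the partners of *Fabp5* were at most 0.0210.

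Library totals lay between 35852708 and 50063339 estimated counts, and mitochondrially encoded genes took 33.6% to 46.8% of them. Normalized values are CPM, counts relative to library size, after TMM scaling between libraries, and a count of 3 corresponds to 0.0592 to 0.0951, a floor that covers counting error alone. By principal components of the tested genes, Ox1RΔSERT mice 11601 and 11708 stood apart on the first component, which held 53.6% of the variance, at 59.3 and 77.04 against -44.3 to 7.13 in the other 6 mice. The same mice had the highest summed level of 11 macrophage markers, 1124 and 868 against 152 to 331 in the other 6. Summed skeletal muscle markers were 2550 in Ox1RΔSERT mouse 11708 and 1866 in control mouse 11253, against 17.3 to 243 in the other 6, and 8 liver genes listed after their values were seen summed to 964 in mouse 11708 and 3.24 to 65.8 elsewhere. The adipocyte markers *Adipoq*, *Plin1* and *Ucp1* were abundant in all mice at mean normalized values of 443, 377 and 2936 or more in each genotype, and the cardiac markers *Nppa* and *Myl7* were at 0. *Hcrtr1*, the deleted gene, had at most 5 counts in any library, too few to show a deletion that was targeted to cells with the serotonin transporter.

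All 10 genes passed the filter on low counts. edgeR's quasi-likelihood test with Benjamini-Hochberg adjustment called 0 of the 10 at an adjusted p under 0.05, and 0% of all 14489 genes tested; at an unadjusted p under 0.05 it gave 5 of the 10 and 15.2% of all genes. DESeq2 called 3 of the 10, *Angptl4* and *Fabp5* as higher and *Lpl* as lower in Ox1RΔSERT mice, and 1.87% of all genes (1.64% as higher and 0.232% as lower). Normalized values of the genotypes did not overlap in 4 of the 10, with *Angptl4* and *Fabp5* higher and *Lpl* and *Fabp3* lower in Ox1RΔSERT mice, against 5.5% of all genes (2.69% higher and 2.81% lower). Because the list was drawn up with this contrast in view, nothing is read from these shares. The plot of all values by mouse shows the spread behind them.

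**Figure D1:**
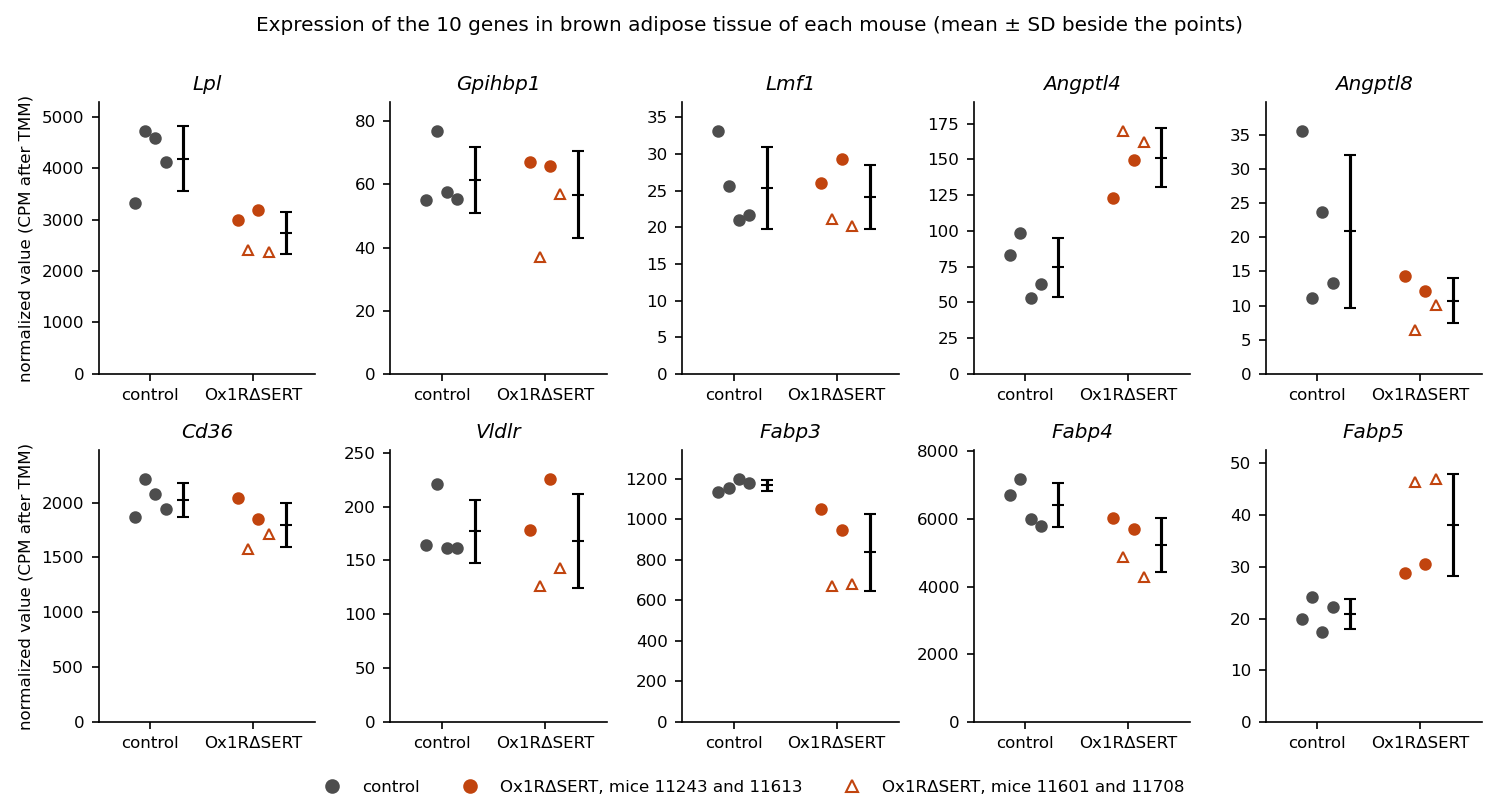
Normalized value (CPM after TMM scaling, y axis from 0) of each of the 10 genes in 4 control and 4 Ox1RΔSERT mice, 1 point per mouse, with mean ± SD beside the points. Open triangles are mice 11601 and 11708. The genotypes are separate for *Lpl*, *Angptl4*, *Fabp3* and *Fabp5* and overlap for the other 6 genes.

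*Lpl* (ENSMUSG00000015568, chromosome 8 of GRCm38, 68880491 to 68907448, plus strand) was among the most abundant transcripts of the tissue. Its normalized values were 3325, 4718, 4592 and 4112 in control mice 10684, 11253, 11560 and 11563, compared with 2995, 2402, 3190 and 2379 in Ox1RΔSERT mice 11243, 11601, 11613 and 11708. All 4 Ox1RΔSERT mice lay below the lowest control mouse, with mice 11601 and 11708 the lowest. The means were 4187 ± 631 and 2741 ± 413 (SD, n = 4 per genotype). Between genotypes the log2 fold change ± SE came to -0.61 ± 0.17 (edgeR quasi-likelihood, adjusted p = 0.316), and DESeq2 gave an adjusted p of 0.0313. Without mice 11601 and 11708 the log2 fold change was -0.43, with an adjusted p of 0.996 in edgeR and 1 in DESeq2. Leaving out 1 mouse ended the DESeq2 call for 11253 (adjusted p = 0.0872), 11560 (0.349), 11563 (0.137), 11601 (0.227) and 11708 (0.277). In TPM, which is scaled per transcript length and to a fixed library sum, *Lpl* was 650, 788, 852 and 797 in the control mice compared with 543, 639, 793 and 609 in the Ox1RΔSERT mice. On that scale mouse 11613 lay within the control range and the other 3 Ox1RΔSERT mice below it. Over all tested genes the median log2 fold change was 0.0021 after TMM and 0.23 on log2(TPM + 1), and relative to this median *Lpl* differed by -0.61 and -0.49. In bulk tissue, fewer cells that express a gene and less RNA per cell cannot be told apart.

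The 2 genes that bring the lipase to its place of action had overlapping values. *Gpihbp1* (ENSMUSG00000022579, chromosome 15, 75596628 to 75599481, plus strand), the endothelial carrier, was at 55.0, 76.9, 57.7 and 55.5 in the control mice compared with 67.3, 37.1, 65.8 and 57.0 in the Ox1RΔSERT mice, in the order given above. Control mouse 11253 was the highest and Ox1RΔSERT mouse 11601 the lowest of all 8. The log2 fold change ± SE was -0.11 ± 0.20 (edgeR, adjusted p = 0.803). *Lmf1* (ENSMUSG00000002279, chromosome 17, 25579085 to 25662826, plus strand), the folding factor, ranged from 21.0 to 33.1 in control mice and from 20.1 to 29.3 in Ox1RΔSERT mice, with a log2 fold change of -0.07 (standard error 0.18) and an adjusted p of 0.869 in edgeR. Both log2 fold changes turned positive on the TPM scale (0.17 and 0.24) and without mice 11601 and 11708 (0.13 and 0.13). The TPM scale moved the median of all genes by 0.23, and relative to this median *Gpihbp1* was at -0.06 and *Lmf1* at 0.0056.

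*Angptl4* (ENSMUSG00000002289, chromosome 17, 33773750 to 33781830, minus strand), the secreted inhibitor of the lipase, had higher values in Ox1RΔSERT mice. Its normalized values were 83.1, 98.6, 53.0 and 62.9 in control mice 10684, 11253, 11560 and 11563, compared with 123, 170, 150 and 162 in Ox1RΔSERT mice 11243, 11601, 11613 and 11708. Each Ox1RΔSERT mouse was above each control mouse. The means were 74.4 ± 20.4 and 151 ± 20.6 (SD, n = 4 per genotype). Between genotypes the log2 fold change ± SE came to 1.02 ± 0.20 (edgeR quasi-likelihood, adjusted p = 0.316), and DESeq2 gave an adjusted p of 0.00183. In TPM the genotypes were separate too, at 22.1 to 36.8 in control mice and 48.6 to 99.1 in Ox1RΔSERT mice. Without mice 11601 and 11708 the log2 fold change was 0.88, with an adjusted p of 0.996 in edgeR and 0.301 in DESeq2. With 1 mouse left out in turn, DESeq2 called *Angptl4* in 8 of 8 fits, with adjusted p-values of 2.3e-05 to 0.038.

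*Angptl8* (ENSMUSG00000047822, chromosome 9, 21835510 to 21837347, plus strand), the other gene of the ANGPTL family among the 10, had a negative log2 fold change. It was at 35.5, 11.1, 23.7 and 13.3 in the control mice compared with 14.3, 6.47, 12.1 and 10.04 in the Ox1RΔSERT mice. The genotypes overlapped, since control mice 11253 and 11563 had values as low as those of the Ox1RΔSERT mice, and control mice 10684 and 11560 were the highest. The log2 fold change was -0.97 with a standard error of 0.39, the widest of the 10 genes, and an adjusted p of 0.317 in edgeR and 0.145 in DESeq2. Leaving out control mouse 10684 brought the log2 fold change to -0.58, and DESeq2 called the gene without mouse 11243 (adjusted p = 0.0493). *Angptl8* lies inside *Dock6* on the opposite strand and shares no exon base with it.

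Set against each other in the same mouse, *Lpl* and *Angptl4* separated the genotypes. The ratio of normalized values, *Lpl* to *Angptl4*, was 40.0, 47.9, 86.6 and 65.3 in control mice 10684, 11253, 11560 and 11563, compared with 24.4, 14.2, 21.3 and 14.7 in Ox1RΔSERT mice 11243, 11601, 11613 and 11708. The highest Ox1RΔSERT mouse was below the lowest control mouse. This separation follows from the 2 genes, since neither overlapped between genotypes in normalized values and their directions were opposite. The log2 ratio was 5.84 ± 0.49 in control mice and 4.18 ± 0.39 in Ox1RΔSERT mice (SD, n = 4 each), a difference of -1.66, and it does not depend on how libraries were scaled. The difference was -1.64 from TPM, -1.33 without mice 11601 and 11708, and between -1.84 and -1.46 with 1 mouse left out in turn. Within the control mice, the mouse with the highest *Angptl4*, 11253, also had the highest *Lpl*. In the remaining control mice, 11560, 11563 and 10684, *Angptl4* rose (53.0, 62.9 and 83.1) as *Lpl* fell (4592, 4112 and 3325). Within the Ox1RΔSERT mice the 2 with the highest *Angptl4* had the lowest *Lpl*. A correlation over the 8 mice would mostly restate the 2 genotypes, which form separate clusters of 4, and with 4 mice in each, whether the genes vary against each other within a genotype was not tested.

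**Figure D2:**
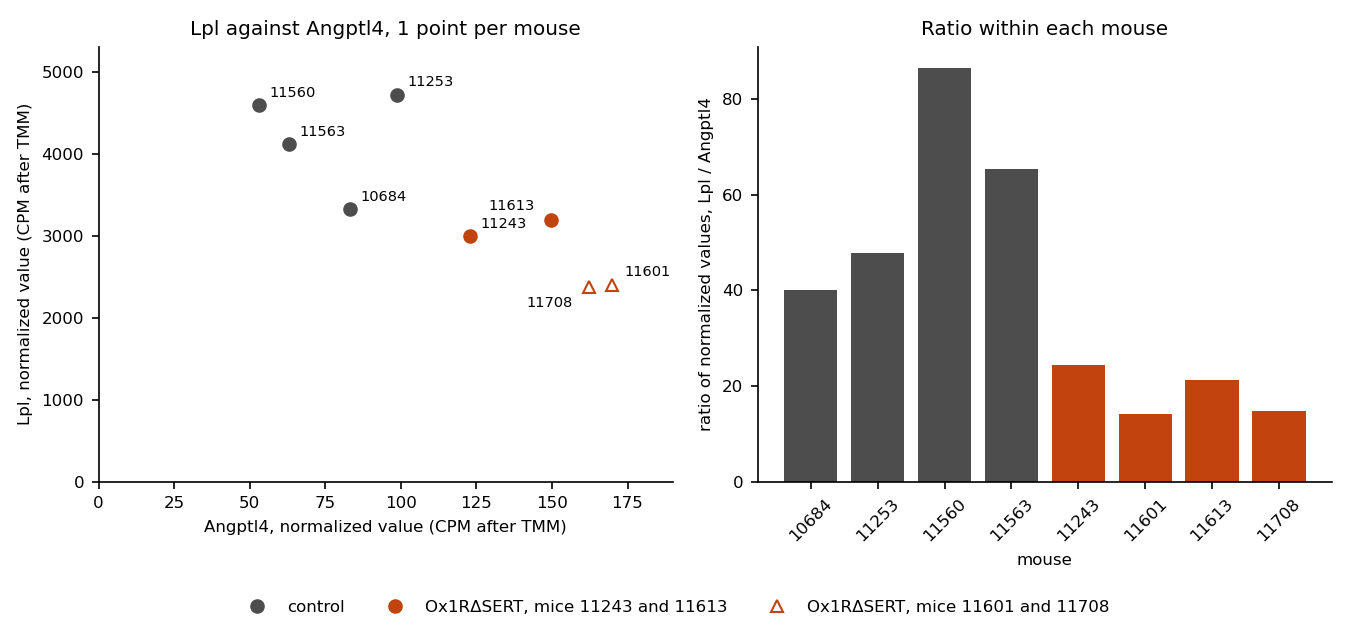
Left, normalized *Lpl* against normalized *Angptl4* (CPM after TMM scaling, both axes from 0), 1 labelled point per mouse, with open triangles for mice 11601 and 11708. Right, the ratio of the 2 values in each mouse, 40.0 to 86.6 in control mice (grey) and 14.2 to 24.4 in Ox1RΔSERT mice (red).

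Other ratios were taken within a mouse in the same way. The ratio of *Angptl4* to *Angptl8* differed by 1.92 on the log2 scale in the mean, and ran from 2.24 to 8.88 in control mice and from 8.61 to 26.2 in Ox1RΔSERT mice, with overlap. *Lpl* was 1.78 to 2.20 times *Cd36* in control mice and 1.39 to 1.73 times in Ox1RΔSERT mice, with no overlap. *Lpl* was 20.3 to 28.3 times *Vldlr* in control mice and 14.2 to 19.0 times in Ox1RΔSERT mice, also with no overlap. *Lpl* by itself did not overlap between genotypes in normalized values, so its ratios to *Cd36* and *Vldlr* in part restate that separation. The ratios of *Lpl* to *Gpihbp1* (60.4 to 79.6 and 41.7 to 64.8), to *Lmf1* (100.4 to 219 and 109 to 118) and to *Fabp4* (0.496 to 0.768 and 0.492 to 0.558) overlapped between control and Ox1RΔSERT mice.

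The surface receptors overlapped between genotypes. *Cd36* (ENSMUSG00000002944, chromosome 5, 17781690 to 17888801, minus strand), the fatty acid translocase, had normalized values of 1865, 2211, 2083 and 1943 in the control mice compared with 2042, 1578, 1849 and 1715 in the Ox1RΔSERT mice. Of the latter, 3 lay below the control range, mouse 11613 just below it and mouse 11601 furthest, and mouse 11243 lay inside it. The log2 fold change ± SE was -0.17 ± 0.13 (edgeR, adjusted p = 0.511), and it was 0.17 on the TPM scale, or -0.06 relative to the median of all genes there. *Vldlr* (ENSMUSG00000024924, chromosome 19, 27216484 to 27254231, plus strand) was at 164, 221, 162 and 161 in the control mice compared with 179, 126, 225 and 143 in the Ox1RΔSERT mice. Ox1RΔSERT mice 11601 and 11708 were the lowest and mouse 11613 the highest of all 8. Its log2 fold change was -0.07 (standard error 0.19, adjusted p of 0.874 in edgeR), and it was 0.28 on the TPM scale, or 0.05 relative to the median there, and 0.20 without mice 11601 and 11708.

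Of the 3 intracellular binding proteins, *Fabp5* was higher in Ox1RΔSERT mice and *Fabp3* and *Fabp4* had lower means. *Fabp5* (ENSMUSG00000027533, chromosome 3, 10012548 to 10016607, plus strand) was at 19.9, 24.2, 17.5 and 22.3 in the control mice compared with 28.8, 46.5, 30.5 and 46.9 in the Ox1RΔSERT mice. All 4 Ox1RΔSERT mice were above the control range, mice 11243 and 11613 by little and mice 11601 and 11708 by far more. The means were 20.9 ± 2.91 and 38.2 ± 9.85 (SD, n = 4 per genotype). Between genotypes the log2 fold change ± SE came to 0.87 ± 0.19 (edgeR quasi-likelihood, adjusted p = 0.316), and DESeq2 gave an adjusted p of 0.0106. Without mice 11601 and 11708 it was 0.51, with an adjusted p of 0.996 in edgeR and 0.823 in DESeq2. The DESeq2 call was also lost without control mouse 11560 (adjusted p = 0.174), and without 11601 (0.114) or 11708 (0.147) alone.

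*Fabp3* (ENSMUSG00000028773, chromosome 4, 130308595 to 130315463, plus strand) had nearly the same value in every control mouse, 1136, 1154, 1195 and 1179, a coefficient of variation of 2.27%. In the Ox1RΔSERT mice it was 1048, 671, 948 and 678, all below the controls, with a coefficient of variation of 22.9%. The log2 fold change ± SE was -0.48 ± 0.16 (edgeR, adjusted p = 0.316; DESeq2, adjusted p = 0.122), and it was -0.22 without mice 11601 and 11708. DESeq2 called it without mouse 11243 (adjusted p = 0.00579). In TPM the genotypes overlapped, at 1068 to 1248 and 958 to 1147. Exons of *Fabp3* share 80 bases with *Gm10570* and 81 bases with *Zcchc17*, both on the opposite strand, and the strand setting of the quantification is not given in the sources used here, so a small part of its counts is uncertain. *Fabp4* (ENSMUSG00000062515, chromosome 3, 10204088 to 10208576, minus strand) ranged from 5791 to 7164 in control mice and from 4271 to 6032 in Ox1RΔSERT mice. Its log2 fold change ± SE was -0.29 ± 0.16 (edgeR, adjusted p = 0.399), and it was 0.023 on the TPM scale, or -0.21 relative to the median of all genes there.

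Since *Fabp4* and *Fabp5* pointed in opposite directions after TMM, their proportion was also taken within each mouse. There were 2.96, 3.38, 2.92 and 3.84 normalized *Fabp5* counts per 1000 of *Fabp4* in the control mice, whereas there were 4.78, 9.52, 5.34 and 10.98 in the Ox1RΔSERT mice, again in the order of the mice given above. The genotypes did not overlap. The log2 ratio differed by 1.14 between genotypes, or by 0.63 without mice 11601 and 11708.

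**Figure D3:**
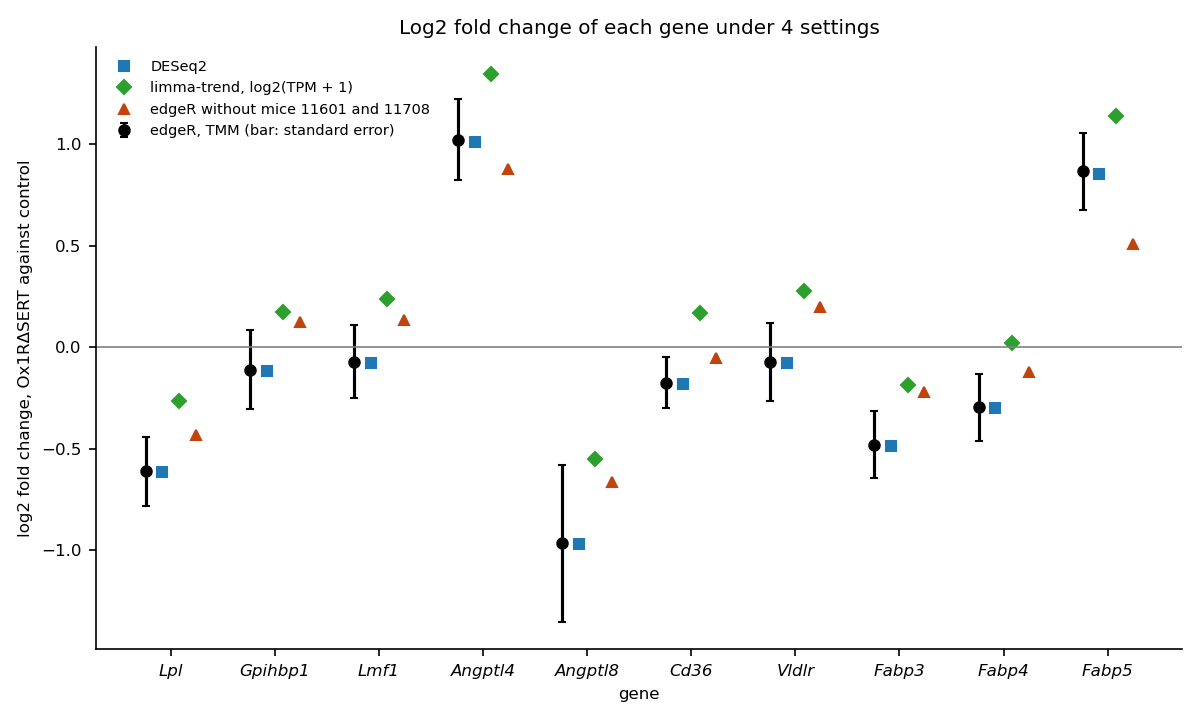
Log2 fold change of each gene, Ox1RΔSERT against control, from edgeR after TMM (black, bars are standard errors), from DESeq2 (blue), from limma-trend on log2(TPM + 1) (green) and from edgeR without mice 11601 and 11708 (red triangles). *Lpl*, *Angptl8* and *Fabp3* are below 0 and *Angptl4* and *Fabp5* above 0 in all 4 settings, and *Gpihbp1*, *Lmf1*, *Cd36*, *Vldlr* and *Fabp4* cross 0, *Cd36* and *Fabp4* only on log2(TPM + 1), where the median of all genes is 0.23.

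Levels of different genes were compared per transcript length, in TPM. In control mice *Fabp4* was the most abundant of the 10 at 7464 ± 674 TPM (SD, n = 4), rank 17 of all genes, followed by *Fabp3* at 1182 ± 79.9, *Lpl* at 772 ± 85.8 and *Cd36* at 699 ± 14.999. The ranges of *Lpl* and *Cd36* overlapped, and *Lpl* was the higher of the pair in 3 of 4 control mice and in 0 of 4 Ox1RΔSERT mice. Then came *Gpihbp1* at 55.3 ± 5.95, *Angptl4* at 30.0 ± 6.86, *Angptl8* at 21.9 ± 12.1, *Vldlr* at 21.1 ± 2.33, *Fabp5* at 18.3 ± 2.08 and *Lmf1* at 12.0 ± 2.50. From *Angptl4* downwards each gene overlapped in range with its neighbour. In Ox1RΔSERT mice the order differed: *Angptl4* was at 79.0 ± 23.3 TPM and above *Gpihbp1* at 62.8 ± 10.5 in 3 of 4 mice, *Fabp5* was at 43.8 ± 16.8 and above *Vldlr* at 26.7 ± 9.40 in 3 of 4 mice, and *Angptl8* was at 13.3 ± 2.56 (SD, n = 4 each).

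**Figure D4:**
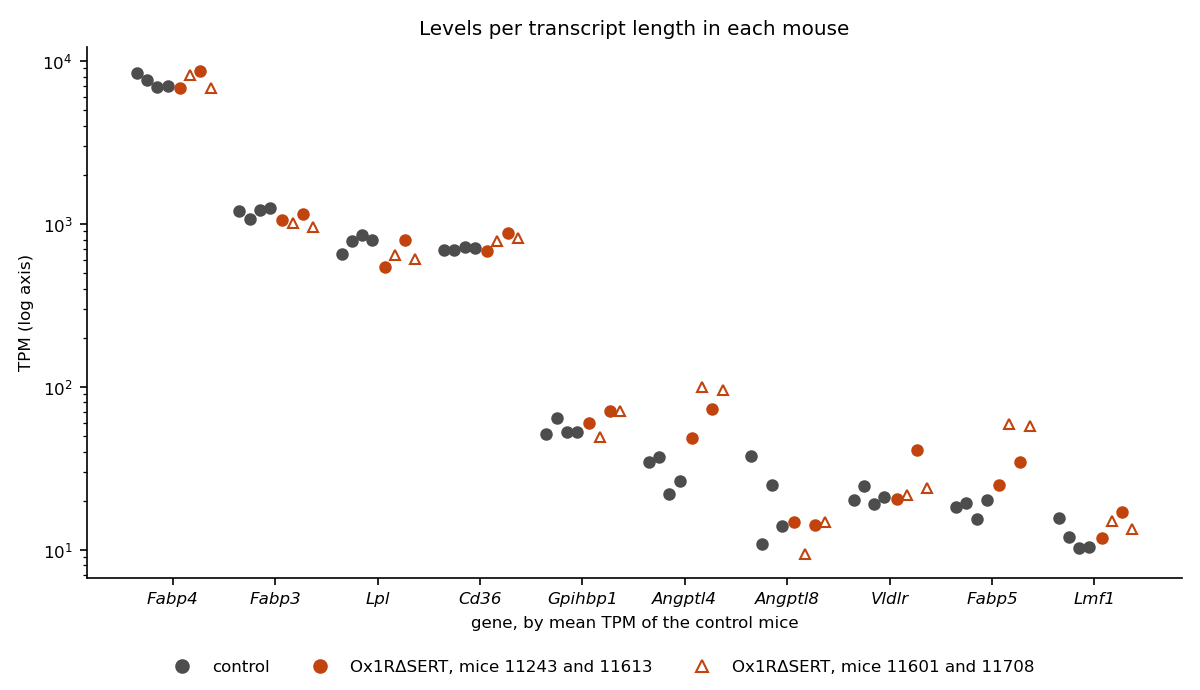
TPM of each gene (log axis) in 4 control mice (grey) and 4 Ox1RΔSERT mice (red, open triangles for mice 11601 and 11708), 1 point per mouse, with genes in the order of the control mean. *Fabp4*, *Fabp3*, *Lpl* and *Cd36* have control means of at least 699 TPM and the other 6 genes of at most 55.3 TPM, and *Angptl4* and *Fabp5* take higher places in Ox1RΔSERT mice.

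Markers of cell types were set beside these values. All 11 macrophage markers, among them *Adgre1*, *Cd68* and *Trem2*, had a positive log2 fold change with an unadjusted p under 0.05 in edgeR and an adjusted p of at least 0.316, and DESeq2 called 5 of them, or 0 without either of mice 11601 and 11708 and without either of control mice 11560 and 11563, 3 without control mouse 10684, 7 without mouse 11613 and 11 without mouse 11243. The sums were 235, 331, 152 and 188 in control mice 10684, 11253, 11560 and 11563, compared with 240, 1124, 270 and 868 in Ox1RΔSERT mice 11243, 11601, 11613 and 11708. The sums of mice 11243 and 11613 were within the control range, although mouse 11613 was above every control mouse for 4 of the 11 markers (*Ptprc*, *Mrc1*, *Cd14* and *Trem2*). In these 2 mice *Angptl4* (123 and 150) and *Fabp5* (28.8 and 30.5) were above, and *Lpl* (2995 and 3190) and *Fabp3* (1048 and 948) below, every control mouse. That follows from the separation of all 4 Ox1RΔSERT mice from the controls for these genes, and adds nothing to it. Without mice 11601 and 11708, the genotypes did not overlap in 10.8% of all genes. Relative to the mean log2 value of the 11 markers, log2 *Fabp5* was 0.86 ± 0.29 in control mice and 0.38 ± 0.77 in Ox1RΔSERT mice (SD, n = 4 each), with overlap and with the negative values in mice 11601 (-0.39) and 11708 (-0.17). The part of macrophage RNA in the values of these genes was not tested.

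**Figure D5:**
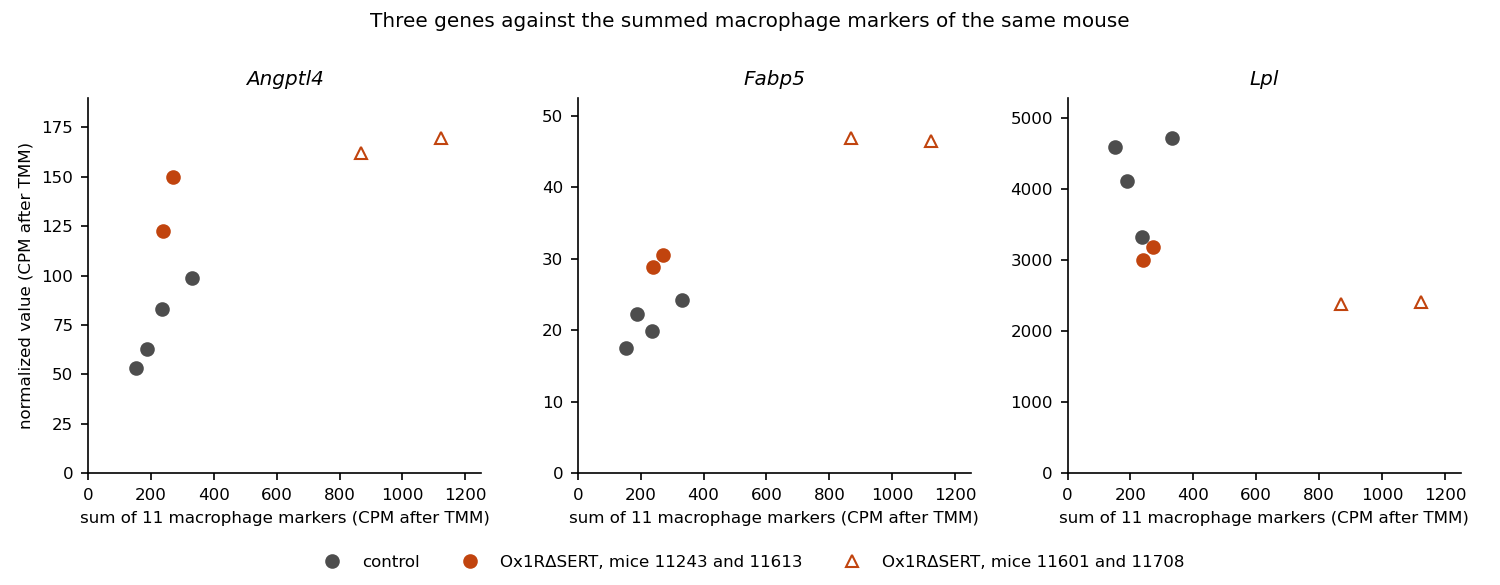
Normalized *Angptl4*, *Fabp5* and *Lpl* (y axes from 0) against the summed normalized values of 11 macrophage markers in the same mouse (x axis), 1 point per mouse, control in grey and Ox1RΔSERT in red. Open triangles, mice 11601 and 11708, lie at 1124 and 868 on the x axis, and the other 2 Ox1RΔSERT mice lie among the controls on this axis at 240 and 270.

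Adipocyte and endothelial markers served as denominators for the genes of those cells. The 7 adipocyte markers summed to 6814 to 7768 in control mice and 4609 to 6507 in Ox1RΔSERT mice, with no overlap, and *Ucp1* made the largest contribution in each mouse. As with *Lpl* and *Fabp3*, mice 11601 (4609) and 11708 (4641) had the lowest sums, and the part of adipocyte RNA in the values of these genes was not tested. With equal weight for each marker, the mean log2 value was 8.33 ± 0.17 in control and 8.23 ± 0.17 in Ox1RΔSERT mice (SD, n = 4 each), with overlap. The markers did not move alike, as 5 of the 7 had a negative and 2 a positive log2 fold change. *Ucp1* and *Cidec* were at -0.54 and -0.32 with an unadjusted p under 0.05 in edgeR. *Lep* was at 0.75, with means of 53.6 ± 41.5 and 90.1 ± 42.8, and offsets the lower markers in this mean. Relative to the mean log2 value of the 7 markers, log2 *Angptl4* was -2.15 ± 0.34 and -1.001 ± 0.31, and log2 *Fabp5* was -3.95 ± 0.25 and -3.01 ± 0.50, in control and Ox1RΔSERT mice, and neither overlapped. Log2 *Lpl* was 3.69 ± 0.40 and 3.18 ± 0.15 above the mean of the markers and log2 *Fabp3* 1.86 ± 0.20 and 1.45 ± 0.27, and on this base both overlapped between genotypes. *Gpihbp1*, relative to the mean log2 value of 10 endothelial markers, was 0.99 ± 0.06 in control mice and 0.76 ± 0.23 in Ox1RΔSERT mice, with overlap. Mice 11601 and 11708 were at 0.52 and 0.61 and the other 2 Ox1RΔSERT mice at 0.95 and 0.96. Of the 10 endothelial markers 5 had a positive and 5 a negative log2 fold change. Only *Cldn5*, at 1.10, had an unadjusted p under 0.05 in edgeR.

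Around the 10 genes, 103 further genes in 11 lists of the same route and of possible upstream regulators were examined, of which 90 passed the filter. At an unadjusted p under 0.05 in edgeR, 13 were higher and 3 lower in Ox1RΔSERT mice, against 10.2% and 4.96% of all genes, and the median log2 fold change of the 90 was 0.03 beside 0.0021 for all genes. edgeR called 0 of them at an adjusted p under 0.05, and DESeq2 called *Cebpd* and *Apoc1*.

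Of the genes of LPL folding, cleavage and surface binding, 2 of 11 were higher at an unadjusted p under 0.05. *Hspg2*, which encodes the heparan sulfate proteoglycan perlecan, was at 141 ± 18.1 and 184 ± 22.8, and *Sdc1*, a syndecan, was at 1.83 ± 0.97 and 10.7 ± 9.20, with 17.3 and 19.8 in mice 11601 and 11708. *Sel1l*, *Furin*, *Pcsk6* and *Sort1*, which act in folding, cleavage or sorting, did not pass. Among 6 apolipoprotein genes, 4 were tested. *Apoc1*, whose product acts on lipase and receptor binding of lipoproteins, was at 403, 328, 267 and 246 in the control mice compared with 226, 168, 219 and 150 in the Ox1RΔSERT mice, with no overlap, a log2 fold change of -0.71 (standard error 0.19) and an adjusted p of 0.316 in edgeR and 0.0463 in DESeq2, a call that held in 2 of the 8 DESeq2 fits with 1 mouse left out, those without mouse 11243 and without mouse 11613. *Apoc2*, the activator of LPL, and *Apoc3*, an inhibitor, were at most 0.793 in control mice, and their highest values, 2.63 and 11.5, were in mouse 11708, which also had the highest sum of liver genes.

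Of 6 lipoprotein receptor genes, *Lrp1* (244 ± 62.4 and 340 ± 75.9), *Lrp8* and *Lsr* were higher at an unadjusted p under 0.05, the latter pair at levels of at most 2.12. Each was highest in mice 11601 and 11708, and in mice 11243 and 11613 did not exceed the highest control mouse. Of 5 tested other lipase genes, *Lipg*, endothelial lipase, was lower at 3.11 ± 0.95 and 1.83 ± 0.23, whereas *Pnpla2*, *Lipe* and *Mgll*, the lipases of stored triglyceride, did not pass. Among 9 tested transport proteins and acyl-CoA synthetases, *Slc27a5* passed through mouse 11708 at 6.23, against at most 0.493 in the other 7 mice. Mouse 11708 also had the highest sum of liver genes. *Acsl1* (1595 ± 84.5 and 1388 ± 304) and *Slc27a1* did not pass. Neither of the 2 tested further fatty acid binding genes, *Fabp1* and *Dbi*, passed. Of 12 tested caveolar and CD36 partner genes, *Cavin3* (10.8 ± 3.64 and 19.97 ± 10.3) and *Lyn* (13.7 ± 1.71 and 21.3 ± 8.58) were higher. Mice 11601 and 11708 were at 34.3 and 20.4 for *Cavin3* and at 30.1 and 27.1 for *Lyn*. For both genes, mice 11243 and 11613 did not exceed the highest control mouse.

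Genes that share known regulators with *Angptl4* were counted in the same way. PPARs drive *Angptl4*, *Lpl* and *Fabp4* in many tissues. Of 8 PPAR and partner receptor genes, 0 passed at an unadjusted p under 0.05, *Pparg* being at 224 ± 13.7 and 219 ± 39.1. Of 14 known PPAR targets, *Cpt1a* passed, at 12.7 ± 1.48 and 20.1 ± 8.73, with 25.2 and 29.7 in mice 11601 and 11708. *Pdk4* was at 1391 ± 461 and 1830 ± 547 and *Plin2* at 875 ± 153 and 957 ± 217, and the median log2 fold change of the 14 was -0.02. Of 9 tested hypoxia-induced genes, *Adm* (3.07 ± 1.07 and 5.96 ± 1.67, no overlap) was higher and *Pfkfb3* (614 ± 192 and 388 ± 122) lower. Of 10 glucocorticoid-induced genes, only *Cebpd*, a C/EBP transcription factor, passed, at 10.1 ± 1.30 and 20.01 ± 3.89 with no overlap. *Cebpd* differed by 0.99 ± 0.16 (SE) on the log2 scale (adjusted p = 0.316 in edgeR and 0.00070 in DESeq2). With 1 mouse left out in turn, its adjusted p in DESeq2 was 3.0e-05 to 0.033. Without both mice 11601 and 11708 its adjusted p in DESeq2 was 0.00064. By sign of the log2 fold change, 4 of the 10 were higher, *Cebpd* among them, and 6 lower in Ox1RΔSERT mice. Their median was -0.04. *Mt2*, *Mt1* and *Zbtb16* were at 0.36, 0.10 and 0.06, and *Fkbp5*, *Tsc22d3* and *Per1* at -0.04, -0.08 and -0.07.

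The genes whose values followed *Lpl* and *Angptl4* most closely were found by Pearson's r of log2 normalized values over the 8 mice among 7361 genes with a mean of at least 10. For *Lpl* they were *Slc35e1* (r = 0.989), *Gkap1* (0.985), *Psma7* (0.971), *Atf6* (0.969) and *St3gal5* (0.960). For *Angptl4* they were *Esyt1* (r = 0.973), *Arhgap23* (0.968), *Cul7* (0.960), *Gnai2* (0.946) and *Epb41l2* (0.945), and for all 5 the genotypes did not overlap. The 8 points share their libraries, their scaling and the split into genotypes, so the r values describe likeness in these mice and were not tested.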

How the data were processed

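BAT of 4 control and 4 Ox1RΔSERT mice was studied by stranded poly-A mRNA sequencing. The authors quantified genes with Salmon 0.14.1 in an nf-core pipeline on GRCm38, and compared genotypes with DESeq2 1.26.0; the annotation release, trimming and strand setting are not given in the sources used here. The deposited files hold unnormalized estimated counts for each gene and mouse, and the authors' TPM values, which are scaled for transcript length and to a fixed sum. Symbols and positions came from GENCODE M21 on GRCm38, which named 44118 of 44674 identifiers.

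Estimated counts were rounded to whole numbers (14.0% of values were not whole) and compared between genotypes over all 8 libraries without covariates with edgeR 4.0.16 in R 4.3.3 (filterByExpr, TMM, two-sided quasi-likelihood test). Benjamini-Hochberg adjustment was made over 14489 genes, with a threshold of 0.05. For likeness and markers, 0.1 was added as a pseudocount before taking log2. Shared sequence was counted as 31-base words of the annotated transcripts. The scripts were tested on simulated data. No pair of libraries agreed within sampling noise (chi-square per degree of freedom of at least 15.5). The labels name a mouse for each library but no litter or day, so p-values measure the spread between these 8 mice, and library totals of 35852708 to 50063339 limit the precision of low genes.

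The members, the gene lists and the tests were chosen with earlier results of these data known. Named genes were the 10 members, up to 4 genes per list by lowest p among those without overlap or with an unadjusted p under 0.05, the 5 genes most like *Lpl* and *Angptl4*, and marker genes. Other genes of the lists that are named as not passing were picked after their values were seen. Alternatives were DESeq2 1.42.0, RLE and upper-quartile scaling, removal of mitochondrially encoded genes, no filter or at least 10 counts in every mouse, limma-trend (limma 3.58.1) on log2(TPM + 1) and log2(TPM + 0.1), and mice left out singly or, for 11601 and 11708, together. DESeq2 without both mice, the ratio of *Fabp5* to *Fabp4* and the liver genes were added after the data were seen.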

Additional observations from a re-analysis of the deposited data

Results flagged for a closer look

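In 24 groups of 4 values, the 10 genes and 2 log2 ratios in each genotype, Dixon's gap test singled out 2, where chance gives about 1 in 20. Both came from control mouse 11253. Its *Gpihbp1* value of 76.9 stood apart from the other control mice at 55.0 to 57.7, with a gap of 0.879 of the group's range. Its *Vldlr* value of 221 stood apart from 161 to 164, with a gap of 0.950 of the range. Mouse 11253 also had the highest sum of skeletal muscle markers among the controls, 1866 against 41.7 to 48.3, and the part of muscle RNA in these values was not tested. Without this mouse the log2 fold changes in edgeR were 0.0046 for *Gpihbp1* and 0.04 for *Vldlr*.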

How the results depend on the processing

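edgeR called 0 of the 10 genes with every scaling and filter tried and with any mouse left out, and limma-trend on TPM called 0. DESeq2 called 3 with all 8 mice (*Lpl*, log2 fold change -0.62; *Angptl4*, 1.01; *Fabp5*, 0.85), 0 without mice 11601 and 11708, and between 1 and 5 with 1 mouse left out: 1 (*Angptl4*) without control mouse 11560 or Ox1RΔSERT mouse 11601 or 11708, 2 (*Angptl4* and *Fabp5*) without control mouse 11253 or 11563, and 5 (also *Lpl*, *Angptl8* and *Fabp3*) without Ox1RΔSERT mouse 11243. The DESeq2 log2 fold change of *Lpl* was -0.43 without both mice and -0.71 to -0.55 with 1 mouse left out, and that of *Angptl4* was 0.88 without both mice and 0.88 to 1.18 with 1 left out. The 5 genes *Lpl*, *Angptl4*, *Angptl8*, *Fabp3* and *Fabp5* kept their direction in all 26 alternatives each. The sign was positive in some alternatives for the others. On log2(TPM + 1) and log2(TPM + 0.1) the log2 fold changes were 0.17 and 0.17 for *Gpihbp1*, 0.24 and 0.25 for *Lmf1*, 0.17 and 0.17 for *Cd36*, 0.28 and 0.29 for *Vldlr*, and 0.023 and 0.023 for *Fabp4*, where the median of all genes was 0.23 and 0.32. Relative to that median, *Gpihbp1* (-0.06 and -0.15), *Cd36* (-0.06 and -0.15) and *Fabp4* (-0.21 and -0.30) kept the negative sign, and *Lmf1* (0.0056 and -0.07) and *Vldlr* (0.05 and -0.03) lay on both sides of 0. Without mice 11601 and 11708 they were 0.13 in edgeR and 0.12 in DESeq2 for *Gpihbp1*, 0.13 and 0.13 for *Lmf1*, and 0.20 and 0.20 for *Vldlr*. With 1 mouse left out the ranges in edgeR and DESeq2 were -0.22 to 0.048 and -0.21 to 0.047 for *Gpihbp1*, -0.18 to 0.083 and -0.19 to 0.082 for *Lmf1*, and -0.25 to 0.042 and -0.26 to 0.046 for *Vldlr*. Genes without overlap between genotypes numbered 797 in all mice and 1561 without mice 11601 and 11708, where fewer mice have to be separate. With the median in place of the mean, *Angptl8* and *Vldlr* changed places in the order of control TPM. Other causes were not tested.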
